A study of Caenorhabditis elegans with 60 samples.

Results

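The left arm of chromosome II, with its tip, was taken as every 500 bp window of the count table on II that ended at or before 4879000 on the ce10 genome. The rule used position only. It gave 9759 of 200579 windows, or 4.87% of the table, from position 1 to 4878992, and 8835 of them had an input that was even across genotypes and were tested. The material was early embryos of the nematode Caenorhabditis elegans, harvested before the bean stage, with a chromatin input and an H3K9me3 immunoprecipitation for each preparation. The 5 genotypes were the wild type N2 (Bristol), the single mutants nrde-3(tm1116) X and lin-61(tm2649) I, and the double mutants in which met-2(n4256) III was combined with nrde-3(tm1116) or with lin-61(tm2649). The former is called met-2 nrde-3 here, and the latter lin-61 met-2. A met-2 single mutant was not analysed here, so the loss of met-2 was seen only on top of another mutation. N2 entered with 2 preparations, since its replicate 1 was left out, and every other genotype with 3.

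H3K9me3, histone H3 trimethylated at lysine 9, marks silent chromatin, and in C. elegans it lies mostly over the repeat-rich arms of the autosomes and much less over their centres. MET-2 is a histone methyltransferase that acts on this lysine. NRDE-3 is an Argonaute, a protein that carries small RNAs into the nucleus and leads silencing to matching transcripts, and LIN-61 is a chromatin protein with MBT domains, which bind methylated histone tails. By its title, the study asked about parallel routes that recruit a methylating enzyme in somatic cells, 1 through NRDE-3 and 1 through LIN-61. The enzyme meant there is not identified here and is not taken to be MET-2. Embryos hold many cell types, so a lower level could be less mark per cell or fewer marked cells, and these cannot be told apart.

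Several libraries stood apart before any comparison was made. The arm held 4.45% to 4.71% of all counts in the 14 inputs used, but 7.02% in the library labelled N2 input 1 and 4.85% in the one labelled N2 H3K9me3 1, against 7.93% and 8.48% in N2 H3K9me3 2 and 3. Whether the input and H3K9me3 labels of N2 replicate 1 are exchanged was not tested. Values with it included as labelled carry that limit. A pair of windows on III, at 8376567 to 8377566, that was nearly empty in the inputs of lin-61 met-2 checked the labels, since III carries the met-2 allele. The inputs labelled nrde-3 were nearly empty there, at a relative depth of 0 to 0.00753, although that strain has wild-type met-2 per the labels, while the inputs labelled met-2 nrde-3 stood at 0.873 to 0.928. Among the H3K9me3 libraries nrde-3 lay between 0.479 and 0.884 and met-2 nrde-3 between 0 and 0.0045, as their labels have it. Those of lin-61 met-2 stood at 0.0265 to 0.273, above the 0 to 0.00376 of their own inputs and below the 0.314 to 0.466 of N2, so this check was less clear for them. Inputs were kept as labelled, and each comparison also has a count from the H3K9me3 libraries alone. The titles put N2 and both nrde-3 strains into 1 library series and both lin-61 strains into another, so any difference between those sets cannot be told apart from the series. The 28 libraries used held 22265768 to 65845682 counts, and their median count per window of the arm lay between 109 and 284. The H3K9me3 libraries of the lin-61 series were shallower, with 22265768 to 43856170 counts against 45137188 to 65845682 in the N2 series.

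In wild type the arm was marked, and every mutant carried less of the mark. Levels are the mean over windows of log2(H3K9me3 / input), with a pseudocount of 8 on scaled counts. The scaling puts the bulk of windows near 0, with medians over all tested windows of -0.0511 to 0.0252 in the preparations. A level of 0 is thus that of the bulk and need not mean absence of the mark. N2 replicates 2 and 3 stood at 1.13 and 1.34. The nrde-3 preparations were at 0.585, 0.957 and 0.420, and those of lin-61 at 0.355, 0.365 and 0.258. No mutant preparation reached the lower N2 value, and nrde-3 varied most. The lin-61 met-2 preparations were at 0.123, 0.186 and 0.242, and the met-2 nrde-3 preparations lay lowest, at 0.0981, 0.0741 and 0.114.

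The genotype means followed in the order N2 with 1.23 ± 0.15 (SD, n = 2), nrde-3 with 0.654 ± 0.275 (n = 3), lin-61 with 0.326 ± 0.059 (n = 3), lin-61 met-2 with 0.184 ± 0.060 (n = 3) and met-2 nrde-3 with 0.0954 ± 0.0201 (n = 3). Neighbours in this order did not overlap, but the gap between their nearest preparations was in each case smaller than the larger SD of the pair. An exact permutation test, two-sided, gave p = 0.2 for each comparison with N2 and p = 0.1 for each comparison of 3 against 3 preparations. Those are the smallest values these designs allow, and after adjustment over the 8 comparisons all stood at 0.2.

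A share of counts, which takes the library total as its scaling and leaves out the input, gave the same order. It also holds the windows of the arm that were not tested. The arm's share of all H3K9me3 counts was 7.93% and 8.48% in N2, 6.66%, 7.80% and 5.99% in nrde-3, and 5.78%, 5.82% and 5.50% in lin-61. It was 5.13%, 5.20% and 5.30% in lin-61 met-2 and 4.25%, 4.26% and 4.16% in met-2 nrde-3. In met-2 nrde-3 the share was thus below that of every input, and in the other genotypes it was above.

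**Figure D1:**
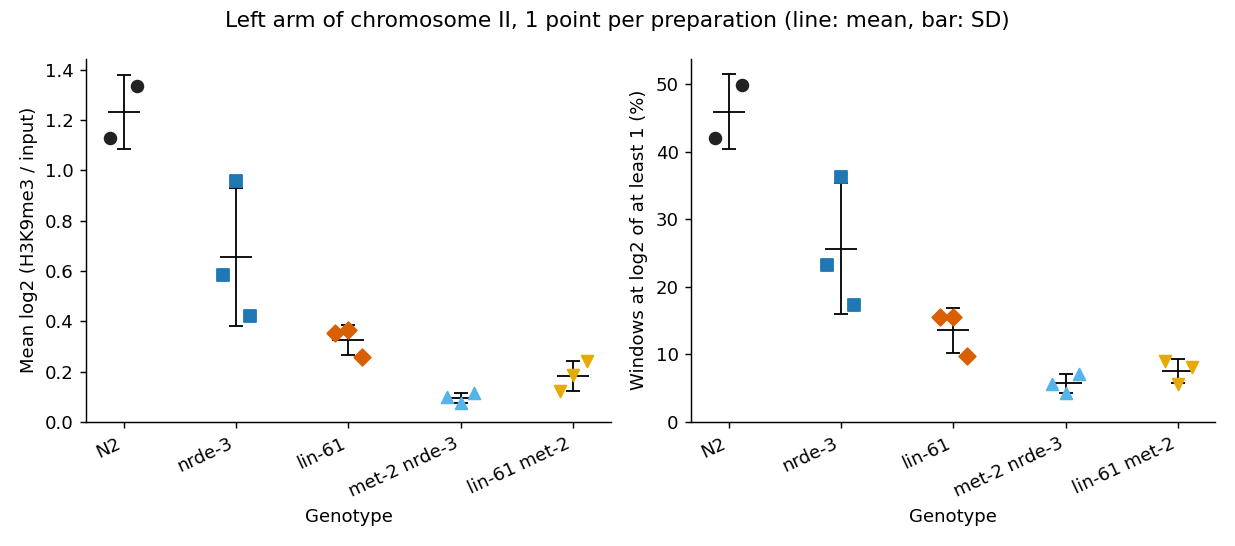
Left arm of II in each genotype, 1 point per preparation, with the mean (line) and SD (bar); the left panel gives the mean log2 (H3K9me3 / input) and the right panel the percentage of tested windows at a log2 level of at least 1. In both panels N2 lies highest, the nrde-3 preparations spread most and the double mutants lie lowest.

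The mark was unevenly spread along the arm. In N2 it rose from 0.34 in the first 0.5 Mb to 1.13 and 1.35 in the next stretches of 500 kb and reached 3.31 ± 0.24 (SD, n = 2) between 1.5 and 2.0 Mb. It then fell to 2.05, 1.65 and 1.60, to 0.75 between 3.5 and 4.0 Mb and to 0.23 and -0.16 in the last 2 stretches. The highest stretches of 100 kb, from 1.7 to 1.9 Mb held 3.66 and 3.65. A separate narrow rise stood at 0.8 to 0.9 Mb, with 2.29 ± 0.24, and from 4.3 Mb on every stretch of 100 kb lay below 0.

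The mutants differed in shape as well as in height. In nrde-3 the profile kept the form of wild type, with 2.22 ± 0.69 (SD, n = 3) between 1.5 and 2.0 Mb, and over the 49 stretches of 100 kb its level correlated with that of N2 at r = 0.981. The lin-61 profile was flat by comparison: its highest stretch of 100 kb held 0.83 and lay at 1.6 to 1.7 Mb. Between 1.5 and 2.0 Mb lin-61 stood at 0.679 ± 0.127, lin-61 met-2 at 0.567 ± 0.075 and met-2 nrde-3 at 0.427 ± 0.066. In met-2 nrde-3 the highest stretch was 1.9 to 2.0 Mb, with 0.96, and 2.0 to 2.1 Mb held 0.51. Correlations with N2 over the 49 stretches were 0.875 for lin-61, 0.772 for lin-61 met-2 and 0.615 for met-2 nrde-3. These describe the profiles, since stretches of 1 library are not replicates and share its depth. Over all tested windows of the table the SD of log2 levels was 0.983 and 1.10 in N2. It was 0.648, 0.926 and 0.507 in nrde-3, ranked as the arm levels of these preparations. In lin-61 it was 0.528 to 0.585, in lin-61 met-2 0.503 to 0.690 and in met-2 nrde-3 0.520 to 0.658. Flatter profiles thus went with a smaller spread over the whole table, and whether any flattening is particular to the arm was not tested.

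At the inner border of the arm the order of the genotypes turned round. In the last 100 kb inside it N2 stood at -0.25 ± 0.02 (SD, n = 2) and met-2 nrde-3 at 0.25 ± 0.03 (n = 3), with nrde-3 at -0.14, lin-61 at -0.05 and lin-61 met-2 at 0.07. In the first 100 kb outside, N2 stood at -0.33 and met-2 nrde-3 at 0.03. The preparations of these genotypes did not overlap in either stretch.

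**Figure D2:**
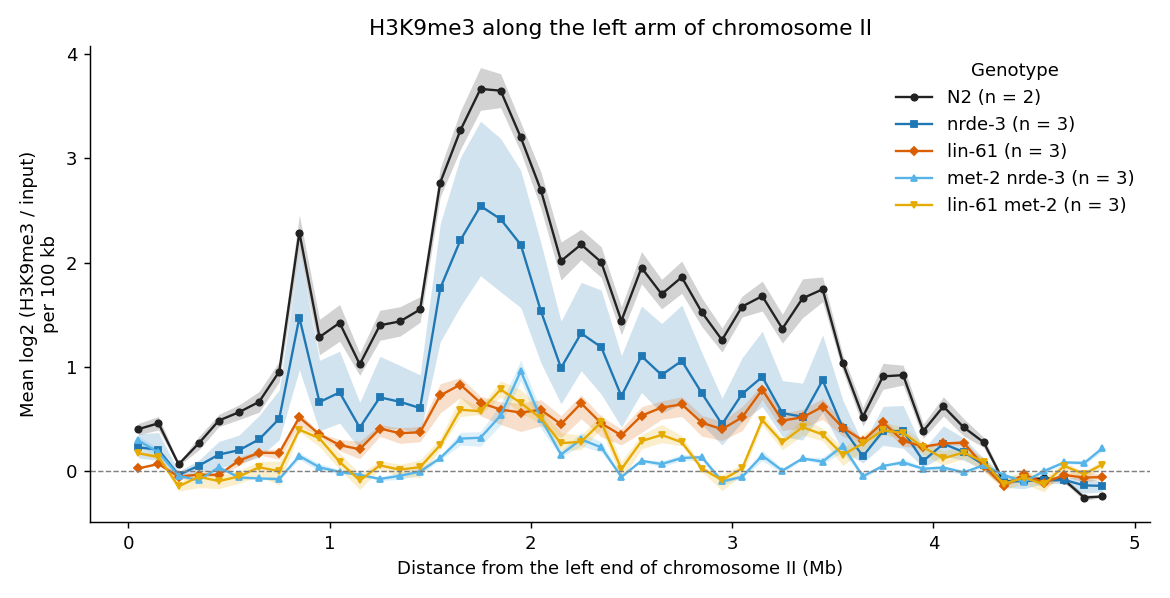
Mean log2 (H3K9me3 / input) in stretches of 100 kb against the distance from the left end of chromosome II in Mb, 1 line per genotype (mean of 2 preparations for N2, 3 for the others), with bands from the lowest to the highest preparation. N2 and nrde-3 peak between 1.7 and 1.9 Mb, lin-61 and the double mutants stay below 1 throughout, and met-2 nrde-3 lies above N2 at the right edge.

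Within each preparation the arm could be compared with other parts of the genome, where scaling cancels. It was above the stretch of equal length at the right end of II in 14 of 14 preparations, by 0.388 on average (exact two-sided sign-flip permutation test, p = 0.000122, the smallest value 14 preparations allow; adjusted over 3 comparisons 0.000183). That difference was 1.03 ± 0.14 in N2, 0.579 ± 0.207 for nrde-3, 0.314 ± 0.050 for lin-61, and in the double mutants 0.223 ± 0.024 for lin-61 met-2 but 0.00903 ± 0.00388 for met-2 nrde-3. Chromosome II was thus lopsided in wild type, and in met-2 nrde-3 its ends differed by almost nothing. Against the left ends of I, III, IV and V together the arm was higher by 0.246, again in 14 of 14 preparations (exact sign-flip permutation test, p = 0.000122; adjusted 0.000183).

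Against the centre of II, from 4878993 to 10400468, the arm was higher by 0.449 in 11 of 14 preparations (exact sign-flip permutation test, p = 0.0129). The exceptions were the 3 preparations of met-2 nrde-3, at -0.316 to -0.237, where the centre carried more H3K9me3 than the arm. N2 differed by 1.52 ± 0.20 in the other direction and lin-61 met-2 by 0.122 ± 0.061. This exact test passed neither with N2 replicate 1 included, at 0.363 and p = 0.0563, nor with the H3K9me3 libraries alone, at 0.339 and p = 0.0541.

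Without nrde-3 only part of the arm passed the threshold. Against N2, edgeR's quasi-likelihood test with Benjamini-Hochberg adjustment over 184912 windows called 1592 of the 8835 tested windows lower, or 18.02%, against 5.29% of all windows tested. It called 0 higher, against 0.116%, with 18 higher at an unadjusted p under 0.05 and 0 by DESeq2. The called windows had a median log2 change of -1.05, and the median of the arm was -0.57 against -0.02 over all windows. The stretch with the largest called share was 3.0 to 3.5 Mb, at 42.1%, while the most marked stretch, 1.5 to 2.0 Mb, had 16.4%. The smaller share did not go with a smaller fall. At 1.5 to 2.0 Mb the level was 3.31 in N2 and 2.22 ± 0.69 (SD, n = 3) in nrde-3. At 3.0 to 3.5 Mb it was 1.60 and 0.72 ± 0.33, with less spread between the nrde-3 preparations. The H3K9me3 libraries alone gave 1953 lower and 0 higher.

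The nrde-3 count depended on single preparations. It was 93 without N2 replicate 3, 788 without N2 replicate 2, 209 and 290 without nrde-3 replicates 1 and 3, and 4504 without nrde-3 replicate 2, the preparation with the highest level. With N2 replicate 1 included as labelled the count was 0, with 307 lower and 31 higher at an unadjusted p under 0.05, and the level difference turned from -0.577 to 0.0938. Under library totals as the scaling the split was 980 lower and 317 higher. The test mattered too: DESeq2 called 3239 lower and 0 higher, and limma on log2 levels divided by their SD 73 and 0.

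Without lin-61 the loss reached most of the arm. Against N2, 4746 windows were called lower, or 53.7%, against 23.3% of all windows tested, and 213 higher, or 2.41%, against 6.1%. The called losses had a median log2 change of -1.36 and the gains one of 0.74. Between 1.5 and 2.0 Mb 842 of 849 windows were lower and none was called higher, while 74 and 73 of the 213 gains lay in the last stretches, from 4.0 to 4.5 Mb and from there to the inner border. The split depended on the scaling: library totals gave 2430 lower and 2230 higher, and moved the median of all windows by 0.77. Relative to that median the arm stood at -0.58 under either scaling. A change of scaling moves all windows nearly alike, so this value could hardly change and is no check of the split. N2 replicate 1 left 7 lower and 18 higher, the omission of N2 replicate 3 left 3296 in all, and the H3K9me3 libraries alone gave 4654 and 356.

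In the double mutants the loss went further. For met-2 nrde-3 against N2, 5461 windows were lower, or 61.8%, against 24.2% of all windows tested, and 177 higher, or 2.0%, against 14.7%. For lin-61 met-2 against N2 these were 5107 lower, or 57.8%, against 25.6%, and 174 higher, or 1.97%, against 11.7%. The median log2 changes of the called losses were -1.62 and -1.55. Between 1.5 and 2.0 Mb 99.4% and 99.8% of windows were lower, and between 4.5 Mb and the inner border 16.2% and 14.9% were higher. Gains thus took a smaller share of the arm than of all windows, and those of the arm lay mostly at its inner border.

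Library totals changed these splits to 3760 lower and 1180 higher for met-2 nrde-3, and 2986 and 2155 for lin-61 met-2. Relative to the median of all windows the arm stood at -0.92 and -0.73 under TMM and at -0.91 and -0.73 under library totals. These values, too, could hardly change with the scaling and are no check of the splits. With N2 replicate 1 included, 526 lower and 134 higher windows were left for met-2 nrde-3, and 372 and 66 for lin-61 met-2. The H3K9me3 libraries alone gave 5769 and 179, and 5082 and 292.

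Loss of met-2 moved more windows past the threshold in the nrde-3 background than in the lin-61 background. The H3K9me3 libraries of the lin-61 strains were shallower, so these counts were not taken at like depth. For met-2 nrde-3 against nrde-3, a comparison within 1 library series, 3273 windows were lower, or 37.0%, against 14.5% of all windows tested, and 242 higher, or 2.74%, against 11.4%. For lin-61 met-2 against lin-61, 820 were lower, or 9.28%, against 6.75%, and 221 higher, or 2.50%, against 7.89%. The lower share in the lin-61 background was thus near that of all windows, and below the 14.7% of the left ends of I, III, IV and V. In the nrde-3 background those left ends had 27.0% of windows lower. With limma on log2 levels divided by their SD, 3128 windows were lower in the nrde-3 background and 1687 in the lin-61 background. Higher by limma were 294 and 498. The mean level fell by 0.559 in the nrde-3 background and by 0.142 in the lin-61 background. The difference between these effects was -0.416 and was not past the threshold (exact permutation test over 400 permutations, p = 0.15).

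The counts lay furthest apart in the most marked stretch. Between 1.5 and 2.0 Mb met-2 loss lowered 780 of 849 windows in the nrde-3 background, or 91.9%, and 24 windows, or 2.83%, in the lin-61 background, in which lin-61 itself stood at 0.679. In the lin-61 background the largest shares lay at 1.0 to 1.5 Mb with 17.98% and at 2.5 to 3.0 Mb with 17.5%. No library is shared between these comparisons, and 494 windows fell in both, which is 15.1% of the longer list and 60.2% of the shorter, where 9.28% and 37.0% of all tested windows of the arm were called in the other comparison. Gains were shared at 68 windows, 28.1% and 30.8% of the lists, where those shares of the arm were 2.50% and 2.74%. Calls depend on the level of a window, so this overlap is a description with no test. Without lin-61 replicate 1 or 2 the count of called windows for lin-61 met-2 against lin-61 fell to 491 or 540. With N2 replicate 1 included, the splits were 91 lower and 148 higher, and 102 and 57, although neither comparison holds an N2 library. The H3K9me3 libraries alone gave 3719 and 238, and 1148 and 287.

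Between the single mutants, lin-61 lay below nrde-3. Of the tested windows 2124 were lower in lin-61, or 24.04%, against 14.1% of all windows tested, and 478 higher, or 5.41%, against 4.93%. The losses were concentrated between 1.5 and 2.0 Mb, where 89.3% of windows were lower. From 3.5 to 4.5 Mb the gains outnumbered the losses, at 96 against 34 between 3.5 and 4.0 Mb and 121 against 74 between 4.0 and 4.5 Mb. Library totals gave 1524 lower and 1379 higher and shrank the level difference from -0.328 to -0.0225. N2 replicate 1 left 14 lower and 119 higher, although no N2 library enters this comparison and its level difference stayed at -0.328. In the fit all groups share 1 estimate of the spread. The H3K9me3 libraries alone gave 2191 and 729. This comparison runs across the library series.

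The double mutants were close to each other. Of the tested windows 179 were lower in lin-61 met-2 than in met-2 nrde-3, or 2.03%, against 6.86% of all windows tested, and 395 higher, or 4.47%, against 1.43%. The arm thus leaned towards lin-61 met-2, by a level difference of 0.0884, while the table as a whole leaned the other way. The gains were most frequent at 3.5 to 4.0 Mb, with 15.3% of windows, and 3.0 to 3.5 Mb, with 9.61%. Leaving out any preparation of met-2 nrde-3 cut the 574 calls to between 218 and 297. Library totals gave 82 lower and 1319 higher, and the H3K9me3 libraries alone 221 and 1002. N2 replicate 1 left 51 and 92, although no N2 library enters this comparison.

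**Figure D3:**
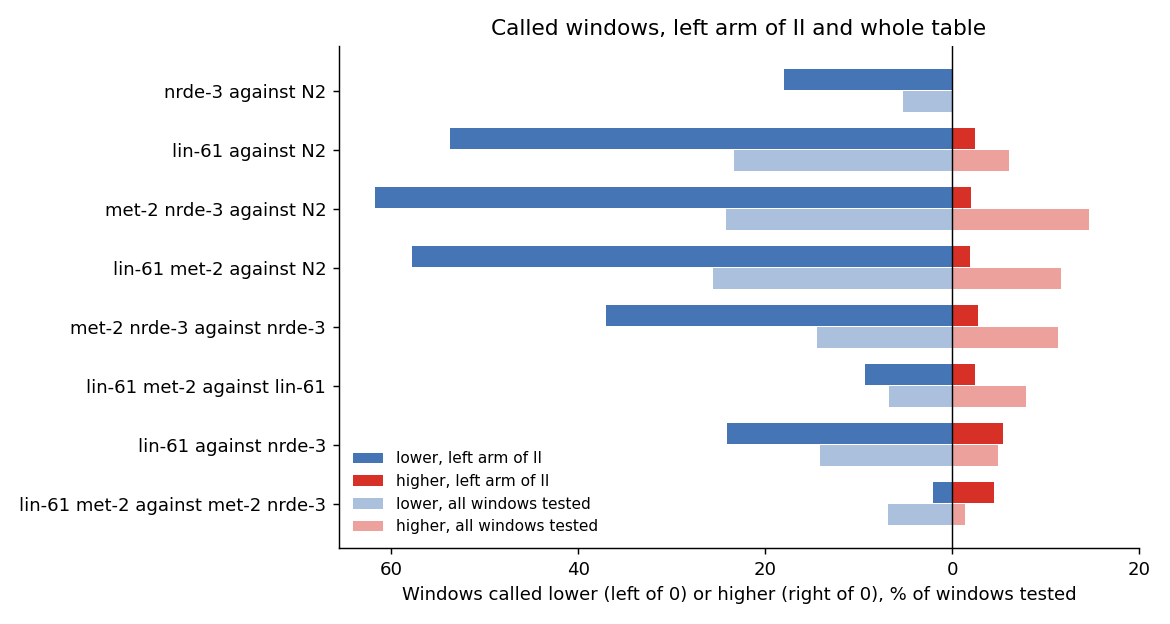
Percentage of tested windows called lower (blue, left of 0) and higher (red, right of 0) in each of the 8 comparisons by edgeR at an adjusted p under 0.05, in the left arm of II (full colour) and over all windows tested (pale). In the 4 comparisons with N2 the arm has more losses and fewer gains than the whole table. The left ends of I, III, IV and V, not drawn, leaned the same way.

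Described as domains, the marked chromatin shrank in number and length. A domain is a run of at least 3 windows with a genotype mean of at least 1 on the log2 scale, joined across at most 1 other window. With this fixed threshold a lower level alone can make domains fewer and shorter. N2 had 246 domains of 1959 kb in all, with a median length of 4500 bp and 57 of at least 10000 bp. There were 156 domains of 1082 kb in nrde-3, 125 of 413 kb in lin-61, 74 of 227 kb in met-2 nrde-3 and 64 of 197.5 kb in lin-61 met-2. The longest domain shortened from 110999 bp in N2 to 67499 bp in nrde-3, 21500 bp in lin-61, 13000 bp in met-2 nrde-3 and 12500 bp in lin-61 met-2.

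The longest N2 domain, II 1658507 to 1769505, was the longest lost locus in both double mutants against N2 and in met-2 nrde-3 against nrde-3. It stood at 3.09 and 3.51 in N2, 2.11, 3.04 and 1.62 in nrde-3, 0.69, 0.70 and 0.58 in lin-61, 0.26, 0.16 and 0.27 in met-2 nrde-3 and 0.43, 0.48 and 0.57 in lin-61 met-2. One nrde-3 preparation came close to the lower N2 value there, and every other mutant preparation lay further below. Next in length were II 1858506 to 1935505, at 2.86 in N2 and 0.45 and 0.44 in the double mutants, and II 2268504 to 2326003, at 2.98, 0.48 and 0.59. The 10 longest N2 domains covered 480.5 kb. Over them N2 lay between 2.39 and 4.02, nrde-3 between 1.12 and 2.56, lin-61 between 0.36 and 0.81, met-2 nrde-3 between 0.03 and 0.70 and lin-61 met-2 between 0.36 and 1.05, so none of the ranges of the last 3 genotypes reached the lowest N2 domain.

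Across all 246 N2 domains the fates differed by genotype. In nrde-3 99 kept a mean of at least 1 and 21 were under 0.5. In lin-61 those were 41 and 66, in lin-61 met-2 21 and 154, and in met-2 nrde-3 21 and 199. The median level over N2 domains was 1.75 in N2, 0.85 in nrde-3, 0.65 in lin-61, and among the double mutants 0.39 for lin-61 met-2 and 0.08 for met-2 nrde-3. The domains were chosen by the mean of the same N2 preparations, so a higher level in N2 is favoured by that choice and these counts are a description. Every preparation lay below both N2 preparations in 224 domains for nrde-3, 238 for lin-61, 236 for met-2 nrde-3 and 243 for lin-61 met-2. In 7 domains met-2 nrde-3 had a mean above that of N2, and the other mutants had none.

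Counted by window, 4001 tested windows stood at 1 or more in N2, 2250 in nrde-3, 1110 in lin-61, 493 for met-2 nrde-3 and 534 for lin-61 met-2. All 2250 of nrde-3 were among those of N2. For lin-61 1024 were, which is 25.6% of the N2 windows and 92.3% of the lin-61 windows. At a level of 2 or more there were 2238 windows in N2, 1026 in nrde-3, 32 in lin-61, 97 for met-2 nrde-3 and 29 for lin-61 met-2. The double mutants shared 323 windows at 1 or more, 65.5% of those of met-2 nrde-3 and 60.5% of those of lin-61 met-2.

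Sorting windows by their level in N2 replicate 2 and reading the rest from other preparations showed how much remained at each height. Among the 283 windows at 4 or more, N2 replicate 3 stood at 4.61, nrde-3 at 3.10 ± 0.81 (SD, n = 3), lin-61 at 1.37 ± 0.23, lin-61 met-2 at 1.18 ± 0.11 and met-2 nrde-3 at 1.15 ± 0.17. Among the 1039 windows from 2 to 3, N2 replicate 3 was at 2.79, nrde-3 at 1.53 ± 0.62, lin-61 at 0.745 ± 0.111, lin-61 met-2 at 0.429 ± 0.058 and met-2 nrde-3 at 0.216 ± 0.045. In every genotype the level rose with the wild-type level, steeply in nrde-3 and shallowly in the others. Among the 1536 windows under 0 all genotypes lay between -0.13 and -0.05.

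**Figure D4:**
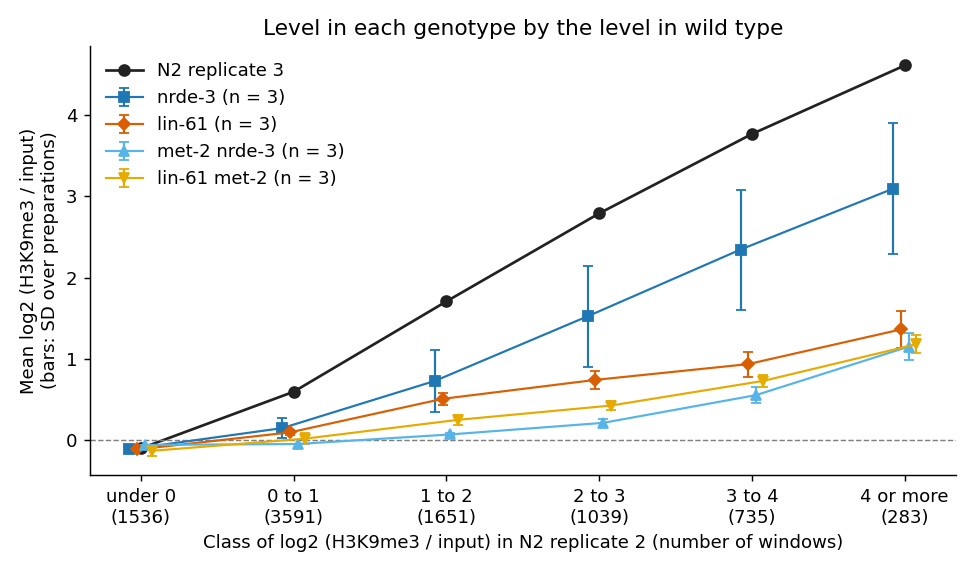
Mean log2 (H3K9me3 / input) of the tested windows of the arm in classes of their level in N2 replicate 2, with the number of windows in brackets; the black line is N2 replicate 3, coloured points are genotype means of 3 preparations and bars are SDs. nrde-3 runs below and alongside N2, and lin-61 and both double mutants stay under 1.5 in the highest class.

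Of the 2238 windows at 2 or more in N2, 2090 or 93.4% stayed at 1 or more in nrde-3, 862 or 38.5% in lin-61, 421 or 18.8% in lin-61 met-2 and 334 or 14.9% in met-2 nrde-3. In 250 windows both double mutants kept 1 or more, and in 1733 neither did. The kept windows came in short blocks, and those held in both double mutants formed 36 runs, 16 of them between 1.5 and 2.1 Mb. The longest, II 1937006 to 1949005, stood at 4.37 in N2, 3.15 in nrde-3, 1.10 in lin-61, 2.38 for met-2 nrde-3 and 1.67 for lin-61 met-2. It was thus lower in lin-61 than in either double mutant. At II 2019005 to 2023004, N2 had 4.19 and 4.37, lin-61 1.44, 1.398 and 0.86, met-2 nrde-3 2.89, 2.56 and 3.20 and lin-61 met-2 2.01, 1.76 and 2.13. The highest of the kept blocks in wild type, II 1644007 to 1647506, held 5.00 in N2, 3.76 in nrde-3 and 2.06 in lin-61, with 2.34 for met-2 nrde-3 and 2.04 for lin-61 met-2. These runs were chosen by their levels and carry no test.

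Single loci showed losses on which the genotypes differed. A locus is a run of called windows of 1 direction with at least 3 calls, with no overlap between the preparations of the genotypes compared. The losses formed 162 loci in nrde-3 against N2, 292 in lin-61, 264 for met-2 nrde-3 and 279 for lin-61 met-2. Adjusted p-values of loci are medians over their called windows, from edgeR with Benjamini-Hochberg adjustment. Since only windows past the threshold are called, these medians lie past it by construction and are no separate test of a locus. They describe loci that were named for their change or their length. The rule of no overlap removed none of the runs with at least 3 calls in any comparison.

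Among the called loci, the largest nrde-3 loss lay at 3.3 Mb, outside the most marked stretch. At II 3309000 to 3314999 N2 stood at 1.98 and 2.48, and nrde-3 at 0.18, 0.05 and 0.07, a fitted log2 change of -2.19 (adjusted p = 1.07e-06). The longest nrde-3 locus, II 3279000 to 3307499, lay just beside it and fell by 2.02 on the log2 scale (adjusted p = 0.00555). At its right end, II 3305500 to 3307499, the mark was strong in wild type, at 3.92 and 4.50, and near 0 in nrde-3, at -0.08, 0.18 and -0.04. It remained in lin-61, at 1.72, 1.64 and 0.99, and this was the largest gain of lin-61 over nrde-3 in the arm, at 1.49 (adjusted p = 0.000315).

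The same 3.3 Mb site set the double mutants apart. Over II 3304500 to 3307499 met-2 nrde-3 stood at -0.13, -0.22 and -0.14 and lin-61 met-2 at 0.96, 1.29 and 1.33, the largest gain between them, at 1.41 (adjusted p = 0.00381). Next came II 1818006 to 1822005, with 0.11, -0.08 and 0.03 in met-2 nrde-3 and 1.42, 1.16 and 1.47 in lin-61 met-2, at 1.37 (adjusted p = 0.00799). There N2 held 3.80 and 4.43, and nrde-3 1.21, 2.13 and 0.85. At the former site both strains with nrde-3(tm1116) lay below both strains with lin-61(tm2649), and at the latter nrde-3 and lin-61 overlapped.

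Other nrde-3 losses were of like size. They included II 1816006 to 1824505 at -2.05 (adjusted p = 0.00455), II 2986001 to 3009500 at -2.001 (adjusted p = 0.00115) and II 1439508 to 1447007 at -1.95 (adjusted p = 8.24e-05). At II 2986001 to 3009500 N2 stood at 2.52 and 2.95, nrde-3 at 0.57, 1.16 and 0.47, lin-61 at 0.98, 1.02 and 0.83 and met-2 nrde-3 at -0.11, -0.13 and -0.15. Without N2 replicate 3 the losses at II 1816006, II 2986001 and II 3279000 stood at -1.77, -1.77 and -1.79 and no longer passed, nor did the last, at -1.93, without nrde-3 replicate 1. With N2 replicate 1 included none of these nrde-3 losses passed, and the one at II 1816006 to 1824505 turned to 0.23.

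In lin-61 the 5 largest losses and the longest lay between 1.5 and 2.1 Mb, while of all 292 loss loci 24 did. The largest was II 1799006 to 1809005, with 4.21 and 4.53 in N2, 2.90, 3.96 and 2.32 in nrde-3 and 0.99, 1.09 and 0.83 in lin-61, a change of -3.42 (adjusted p = 1.52e-07). The double mutants were no lower there, at 1.16, 0.93 and 1.3 in met-2 nrde-3 and 1.26, 1.00 and 1.19 in lin-61 met-2. Gains in lin-61 were small. At II 3500499 to 3503498 N2 had 0.19 and 0.59 and lin-61 1.41, 1.38 and 1.26, a change of 0.97 (adjusted p = 0.00195) that was 0.77 and did not pass without N2 replicate 2, while the highest preparation of the other mutants stood at 0.61. The largest, at II 4427495 to 4429494, was 1.03 (adjusted p = 0.00331).

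The largest change of any locus was the loss at II 1636007 to 1641506 in met-2 nrde-3. Its levels were 4.29 and 4.55 in N2, 2.98, 4.07 and 2.46 in nrde-3, and 0.49, 0.43 and 0.64 in met-2 nrde-3, a change of -3.94 against N2 (adjusted p = 8.27e-10) and -2.82 against nrde-3 (adjusted p = 9.76e-08). It also led the losses of lin-61 met-2 against N2, at -3.56 (adjusted p = 1.08e-08), with 0.77, 0.71 and 1.14, below the 1.67, 1.5 and 1.22 of lin-61. Next among the losses of met-2 nrde-3 against nrde-3 was II 3042501 to 3056000, at 2.59, 3.64 and 2.02 in nrde-3 and 0.21, 0.17 and 0.27 in met-2 nrde-3.

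Loss of met-2 in the lin-61 background had smaller leading changes, partly at places that met-2 loss also lowered in the nrde-3 background. The leading locus was II 2817502 to 2819001, at 1.19, 1.21 and 0.81 in lin-61 and -0.24, -0.45 and -0.53 in lin-61 met-2, a change of -1.54 (adjusted p = 0.000189). At II 2921501 to 2928000 lin-61 held 1.75, 1.75 and 1.48 and lin-61 met-2 0.38, 0.26 and 0.31, a change of -1.37 (adjusted p = 0.00343). At II 2817502 to 2819001 wild type was at 1.67 and 2.20, and met-2 nrde-3 stood at -0.08, -0.23 and -0.26. The second largest change, -1.45 (adjusted p = 0.00932), was at II 3047001 to 3055500, inside the locus at II 3042501 just named, and without lin-61 replicate 1 it stood at -1.38 and did not pass.

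**Figure D5:**
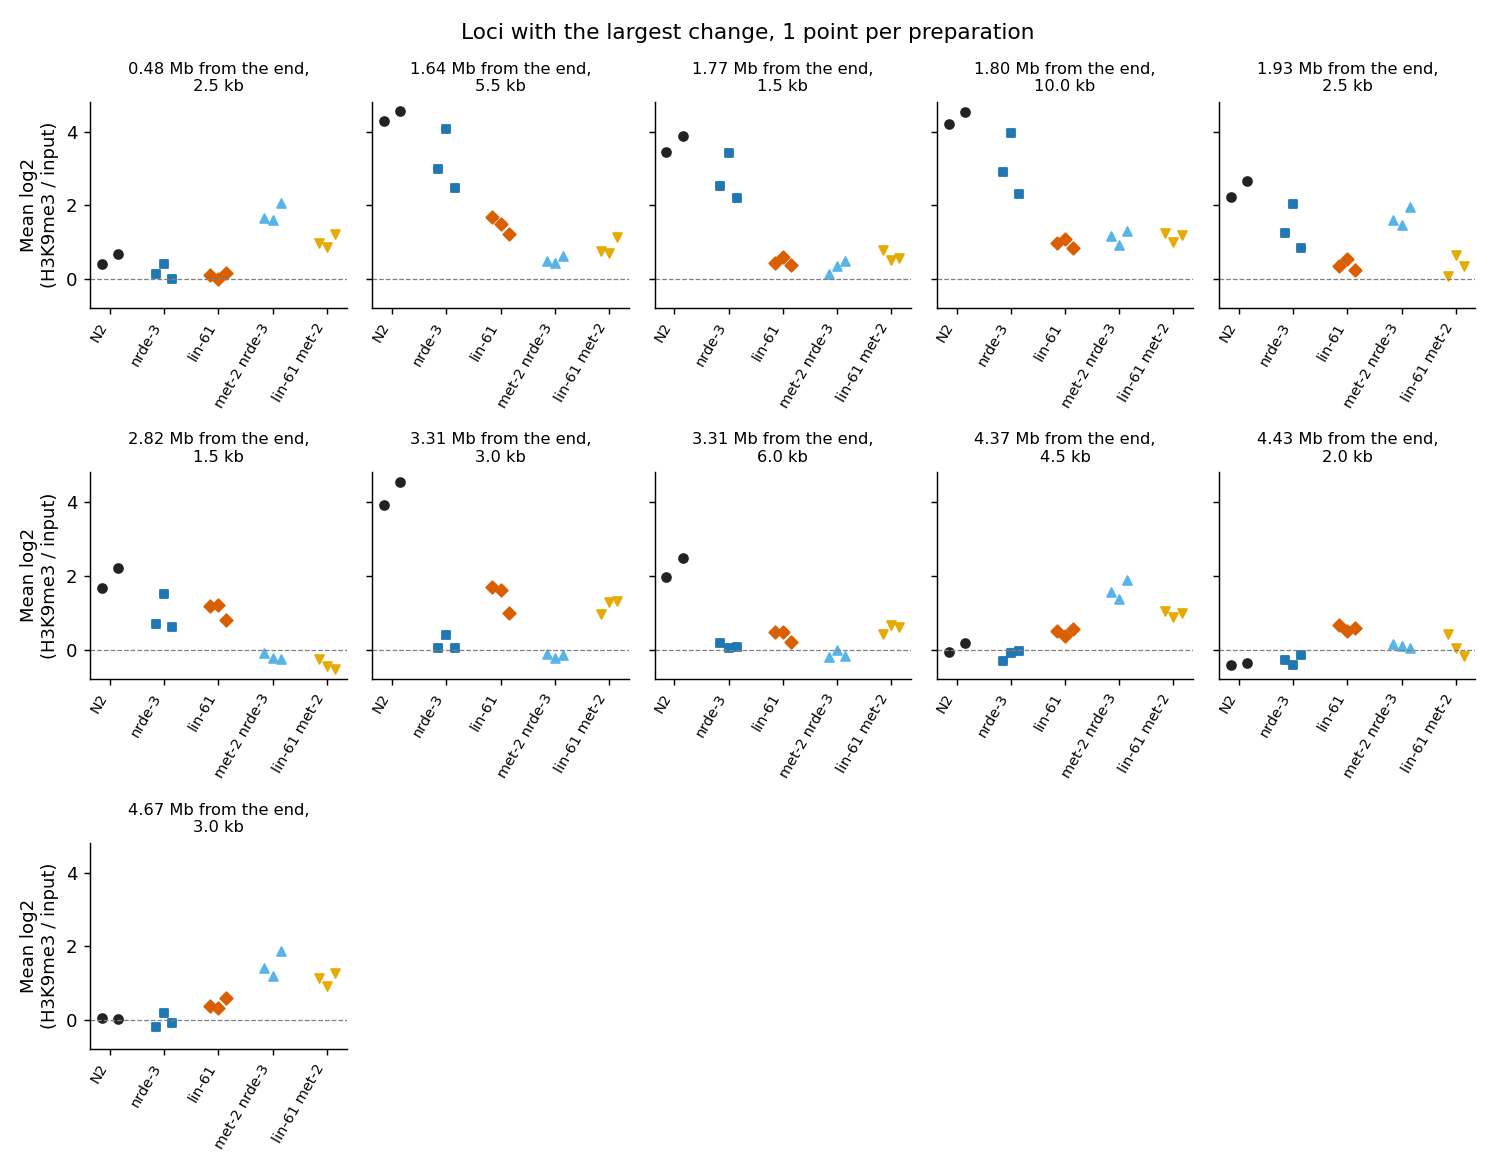
Mean log2 (H3K9me3 / input) per preparation at the 11 loci that lead a comparison and direction, with overlapping leaders drawn once; each panel names the distance of its middle from the left end of II in Mb and its length, and each point is 1 preparation. At 3.31 Mb nrde-3 and met-2 nrde-3 lie near 0 while lin-61 and lin-61 met-2 lie higher, and at 0.48, 4.37 and 4.67 Mb the double mutants lie above the other genotypes.

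A few places gained the mark in the double mutants, mostly at the inner border. Of the loci higher than N2, 15 of 21 in met-2 nrde-3, 13 of 15 in lin-61 met-2 and 12 of 19 in lin-61 lay beyond 4.2 Mb. Of the 8835 tested windows, 949 lay at 4.0 to 4.5 Mb and 736 from there to the inner border. Such gains were not particular to the arm. In the adjoining centre of II, 43.7% of windows were higher than N2 in met-2 nrde-3, 27.5% in lin-61 met-2 and 11.7% in lin-61. The leading gain of met-2 nrde-3 was II 4366995 to 4371494, where N2 stood at -0.05 and 0.17, nrde-3 at -0.30, -0.10 and -0.03, and met-2 nrde-3 at 1.57, 1.38 and 1.90, a change of 1.61 (adjusted p = 5.77e-06). There lin-61 held 0.50, 0.37 and 0.57 and lin-61 met-2 1.04, 0.90 and 0.99. The leading gain of lin-61 met-2, II 4668994 to 4671993, had 0.07 and 0.04 in N2, 1.41, 1.2 and 1.87 in met-2 nrde-3 and 1.13, 0.93 and 1.27 in lin-61 met-2, with changes of 1.49 (adjusted p = 3.75e-05) and 1.10 (adjusted p = 0.00166). The longest gain, II 4795993 to 4806992, went from -0.30 and -0.31 in N2 to 1.01, 0.96 and 1.17 in met-2 nrde-3, and only to 0.47, 0.36 and 0.35 in lin-61 met-2.

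Some sites elsewhere on the arm gained against the matching single mutant. II 476012 to 478511 stood at 0.42 and 0.68 in N2, 0.14, 0.42 and 0.00 in nrde-3 and 1.67, 1.60 and 2.06 in met-2 nrde-3, a change of 1.62 against nrde-3 (adjusted p = 2.07e-07). Its part from 477012 to 478511 led the gains of lin-61 met-2 over lin-61, from 0.10, 0.11 and 0.14 to 1.5, 1.51 and 1.56 (log2 change 1.44, adjusted p = 0.000383). Near the tip, II 51014 to 58013 had 1.57 and 1.83 in N2 and 0.45, 0.36 and 0.28 in lin-61, and stood at 2.25, 2.10 and 2.61 in met-2 nrde-3 and 1.76, 1.5 and 1.68 in lin-61 met-2. Nearer the inner border, at II 4234996 to 4237995, N2 stood at 1.37 and 1.59, while lin-61 held 0.18, 0.25 and 0.26 and the double mutants 1.94, 1.91 and 2.28, and 1.53, 1.39 and 1.58.

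At II 3445999 to 3448998 both single mutants were lower than both double mutants. N2 stood at 1.92 and 2.21, nrde-3 at 0.30, 0.54 and 0.34 and lin-61 at 0.23, 0.07 and -0.21. The double mutants held 1.12, 1.19 and 1.38 in met-2 nrde-3 and 1.34, 1.22 and 1.33 in lin-61 met-2, and the gain of the latter over lin-61 was 1.29 (adjusted p = 0.000536). No preparation of a single mutant overlapped one of a double mutant.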

How the data were processed

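The deposited table holds raw counts per 500 bp window, 1 column for each of 30 libraries, with the 2 runs of a library combined. The values are whole numbers with a different total in every column. Chromatin was immunoprecipitated and sequenced from both ends, per the labels' protocols, and the build is ce10, per the submitters' processing notes. The aligner, the counting tool and the handling of repeats and duplicates are not given in the sources used here, so windows in repeats could hold reads of several copies. The titles name H3K9me3, while LEM-2 is the antibody target in the labels' extraction protocol. The growth protocol gives a different number of replicates from the extraction protocol, and the titles' 3 per genotype were used. Nothing says which preparations came from separate cultures, so p-values measure at most the spread between these preparations. Those of edgeR use a spread that all groups share, inputs included, and not that of the compared genotypes alone. The fit did not pair the H3K9me3 library of a preparation with its input.

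The arm's members, the lists and the tests were chosen with earlier results of these data known. edgeR 4.0.16 in R 4.3.3 was fitted to 28 libraries with TMM factors (0.578 to 1.14), 1 group per genotype and library type and no block, over 184912 windows of even input, where mean scaled input differed by at most 1.5 times between genotypes. Contrasts were differences between genotypes of H3K9me3 minus input, adjusted by Benjamini-Hochberg over all windows, with a threshold of 0.05. Counts have no molecular identifiers and no measure of absolute amount was used, so a change shared by the whole genome cannot be seen. On simulated counts for met-2 nrde-3 against nrde-3 (184912 windows, dispersion 0.0152), the fit recovered 62 of 100 changes of 2-fold and 100 of 100 of 4-fold, with 5 false calls. The simulation used 1 dispersion for all windows and the same profile for every genotype. Its preparations did not differ in enrichment, whereas those of nrde-3 ranged from 0.420 to 0.957 on the arm. These figures therefore do not give the recovery or the false calls in the real data.

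Loci named are, per comparison and direction, the 5 with the largest mean change and the longest, from called windows joined across at most 1 other window, with at least 3 calls and no overlap of preparations. The 10 longest N2 domains are a description. Alternatives were DESeq2 1.42.0 as the test or the scaling, library totals, limma 3.58.1 on log2 levels divided by their SD, pseudocounts of 1 and 32, all windows, a mean count of at least 20, N2 replicate 1, H3K9me3 alone, a replicate block and the omission of each preparation. No gene names are given, since the annotation at hand is of another build, and no sequence is printed because a ce10 genome was not used here.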

Additional observations from a re-analysis of the deposited data

Results flagged for a closer look

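Windows that the tests left out carried the mark. Of the 924 windows of the arm with uneven input, or 9.47%, 850 had a lower input in the lin-61 series, with a median scaled input of 70.1 against 223 in the N2 series. In the evenly covered windows these medians were 248 and 224. Of the 924, 884 were even within the N2 series. There the mean log2 level was 2.29 ± 0.15 (SD, n = 2) in N2, 1.39 ± 0.48 (n = 3) in nrde-3 and 0.56 ± 0.10 (n = 3) in met-2 nrde-3, which did not overlap. The N2 level was above that of the tested windows, 1.23 ± 0.15 (n = 2). The most such windows in 1 stretch of 100 kb were 77, between 1.0 and 1.1 Mb. These windows were chosen for their input, and why their input differs between the library series was not tested.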

How the results depend on the processing

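Of the results, N2 replicate 1 moved most. With it included as labelled, counts of called windows were 0 for nrde-3, 25 for lin-61, 660 for met-2 nrde-3 and 438 for lin-61 met-2 against N2, 239 for met-2 nrde-3 against nrde-3, 159 for lin-61 met-2 against lin-61, 133 for lin-61 against nrde-3 and 143 between the double mutants. The level differences from N2 became 0.0938, -0.234, -0.465 and -0.376 in the same order, of which the one for nrde-3 reversed, as did II 1816006 to 1824505 in nrde-3, at 0.228. In the comparisons without N2 the level differences stayed at -0.559, -0.142, -0.328 and 0.0884, in the order above, though their counts fell. Of 87 named loci 24 still passed. The arm minus the centre of II was 0.363. Library totals gave level differences of -0.132 for nrde-3, -0.154 for lin-61, -0.566 for met-2 nrde-3 and -0.301 for lin-61 met-2 against N2, -0.0225 for lin-61 minus nrde-3 and 0.265 between the double mutants, with 1401 calls there, and they moved the median of all windows by 0.48, 0.77, 0.59 and 0.77 in the comparisons with N2, 0.30 for lin-61 against nrde-3, 0.18 between the double mutants and 0.11 for met-2 nrde-3 against nrde-3. H3K9me3 alone gave 1223 calls and 0.164 between the double mutants, and 0.339 for arm minus centre. DESeq2 called 3239 windows for nrde-3 against N2. limma on levels divided by their SD called 73 there, 2823 for lin-61 against N2, 2185 for lin-61 met-2 against lin-61 and 1427 between the double mutants. In these cases the cause was not tested. The omission of each preparation gave 93 to 4504 calls for nrde-3 against N2, 3296 to 4610 for lin-61 against N2, 491 to 926 for lin-61 met-2 against lin-61 and 218 to 508 between the double mutants. Replicate numbers showed no clear pairing of the preparations: over 26 pairs of the same number the correlation of deviations was -0.387 to 0.308, with 2 above 0.1. Deviations were taken from means of few preparations, and pairs of different number were not set beside these, so this does not settle the pairing. The replicate block gave 1552, 4697, 5434 and 5086 windows lower against N2, in the order above, and changed no count of calls by more than 1.5 times. All 87 named loci passed with the block, with DESeq2, with its size factors and with all windows; 1 was lost with library totals, 1 with H3K9me3 alone and 6 with limma.

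At these depths a 2-fold change was recovered in 62 of 100 simulated windows, without the real differences in enrichment between preparations. Other depths were not simulated. The lin-61 series had 156 to 206 windows of the arm with no count, against 0 to 1 in the N2 series.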

Other observations

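In 7 of the 246 N2 domains the mean of met-2 nrde-3 was above that of N2. The largest excess was at II 4572994 to 4574493, with 1.02 and 1.29 in N2, 0.41, 1.01 and 0.17 in nrde-3 and 2.07, 2.01 and 2.34 in met-2 nrde-3. There lin-61 met-2 stood at 0.67, 0.84 and 0.81, below both N2 preparations. At II 52514 to 57013 N2 held 2.06 and 2.30, lin-61 0.58, 0.55 and 0.37, and met-2 nrde-3 2.61, 2.41 and 3.02. At II 582011 to 584010 N2 held 1.23 and 1.54 and met-2 nrde-3 1.89, 1.44 and 2.03, which overlapped.

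Some windows were lower in lin-61 met-2 than in met-2 nrde-3, which formed 13 loci. At II 1928506 to 1931005 met-2 nrde-3 held 1.61, 1.48 and 1.95 and lin-61 met-2 0.09, 0.65 and 0.36, a log2 change of -1.32 (edgeR, adjusted p = 0.0023). At II 1148509 to 1151008 these levels were 1.73, 1.53 and 1.99 against 0.48, 0.38 and 0.58, a change of -1.32 (adjusted p = 0.00416). At the latter lin-61 stood between the double mutants, at 0.99, 1.03 and 0.92.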
